A study of Homo sapiens with 9 samples.

Results

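The transcripts described here are those of 10 genes, of 18662 named on the array, in the hypoxia-inducible factor (HIF) pathway: the subunit genes HIF1A, EPAS1 and ARNT, the hydroxylase genes EGLN1, EGLN2, EGLN3 and HIF1AN, the ubiquitin ligase gene VHL, and CITED2 and BHLHE40, which are both targets and regulators of the response. All probes whose platform gene symbol is one of these 10 were taken, which gave 16 of 48803 probes. The cells were THP-1, a human monocytic leukemia line that grows in suspension and is a single transformed line and not a primary monocyte. RNA was profiled on Illumina bead arrays from fresh cells, frozen cells and replated cells, with 3 biological replicates per state and 9 arrays in all. The title of the series concerns RNA from liquid nitrogen stocks, so the comparisons ask whether these transcripts stood at other levels in frozen cells, and in cells plated again, than in fresh ones. The labels give no treatment, oxygen level, freezing procedure or culture time for any state, and the design text does not say how the biological replicates were separated.

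HIF is a pair of proteins, an oxygen-labile alpha subunit (HIF-1 alpha from HIF1A or HIF-2 alpha from EPAS1) and a stable partner, HIF-1 beta, from ARNT. When oxygen is present, the prolyl hydroxylases of the EGLN family mark the alpha subunit, the VHL protein recognises the mark and the subunit is degraded, while the asparaginyl hydroxylase from HIF1AN blocks its binding to the coactivators p300 and CBP. In hypoxia these reactions slow and HIF drives genes of glycolysis, iron handling and blood vessel growth. Since this control acts on protein, transcript levels alone do not measure HIF activity. Both alpha subunits are known to act in macrophages.

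The annotation and the arrays fixed what could be read. Each probe has a deposited signal in intensity units and a detection score on each array, used here as 1 minus a detection p, so that a score of 1 means that the signal lay above all negative controls. A probe was called detected on an array at a detection p under 0.05, and it was tested if detected on at least 3 of the 9 arrays. Of the 16 probes, 13 were detected on all 9 arrays, the ARNT probe on 5 and 2 on none, so that 14 probes of 9 genes were tested and EGLN3 was not. Between 16898 and 17679 probes were detected per array. Signals were background-corrected and quantile-normalized to a log2 scale with an offset, on which the difference of a dim probe is understated. Of the monocyte and macrophage markers with a probe, 18 of 20 were detected on all 9 arrays and 1, MRC1, on none. Of 18 markers of other cell types with a probe, 12 were detected on no array, among them CD3E, EPCAM, COL1A1 and HBB, and 3 (NKG7, PECAM1 and ACTA2) on all.

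Across the states, 4 of the 14 tested probes passed limma's moderated F test (Benjamini-Hochberg adjusted p under 0.05), against 9.63% of all 18102 probes tested. The genes were chosen with earlier results of these data known, and some have several probes, so this count does not test the set. They were the probes of EPAS1, BHLHE40 and CITED2 and 1 of the 3 probes of VHL. In 18 other settings of the processing the first and second passed in all, CITED2 in 12 and the VHL probe in 8. EPAS1 stood highest in replated cells and BHLHE40 lowest, and the CITED2 and VHL probes were separated between replated and frozen cells. No probe of HIF1A, ARNT, EGLN1, EGLN2 or HIF1AN passed in any comparison. Here and throughout, ± after a mean is the SD over 3 arrays, ± after a log2 difference is limma's standard error, and adjusted p is limma's p after Benjamini-Hochberg adjustment over all 18102 probes. The plot of normalized signal by array shows all 16 probes.

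**Figure D1:**
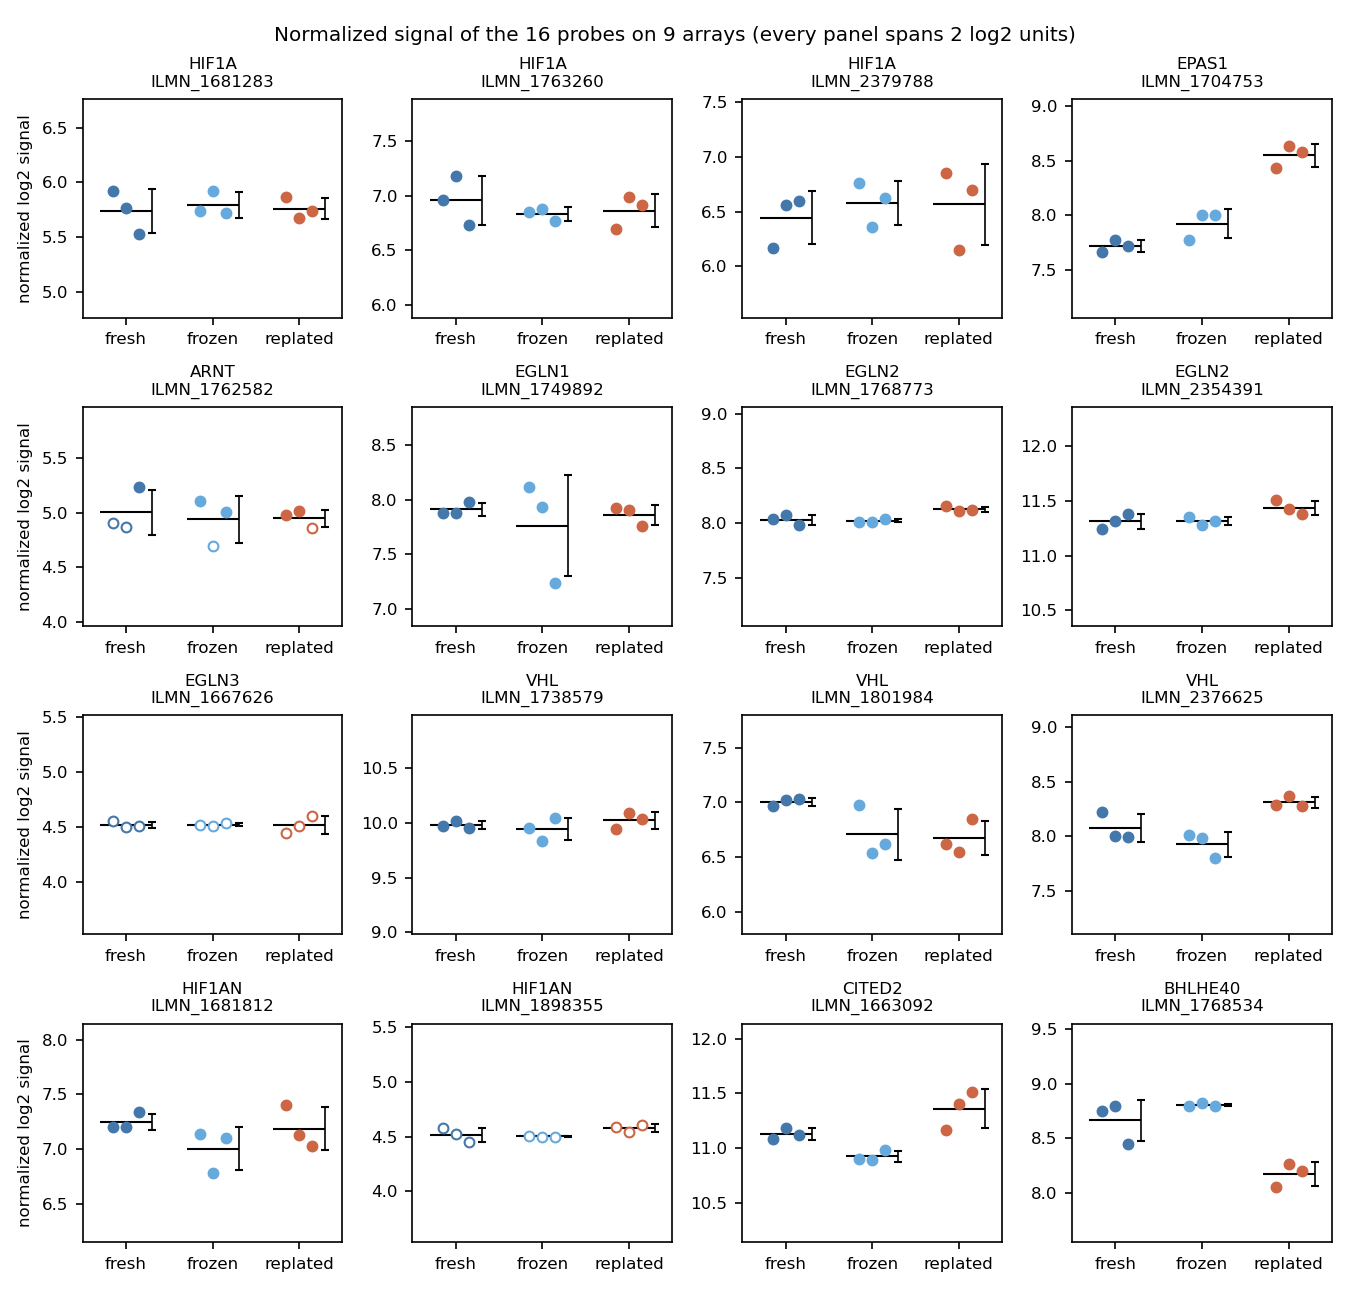
Normalized log2 signal (y axis) of each of the 16 probes on the 3 fresh, 3 frozen and 3 replated arrays (x axis); every panel spans the same range of log2 units around its own mean. Filled points are arrays on which the probe was detected and open points arrays on which it was not; the horizontal bar is the mean and the vertical bar 1 SD on either side (n = 3). The EPAS1 points of replated cells lie at 8.43 to 8.64, above all other arrays, those of BHLHE40 at 8.05 to 8.27, below all other arrays, and the EGLN3 points are all open.

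EPAS1, at chromosome 2 positions 46297407 to 46386697 of GRCh38.p14, encodes HIF-2 alpha, and its single probe (ILMN_1704753) had a detection score of 1 on every array. The deposited signals of the fresh arrays were 268.7, 267.0 and 256.5 intensity units. Those of the frozen arrays were 272.5, 254.8 and 268.7. The replated arrays had 384.0, 444.2 and 453.2. Every replated array lay above every fresh and frozen array, and the fresh and frozen ranges overlapped almost wholly, before any normalization. Deposited signals, here and for the genes below, are not scaled for array brightness. The mean signal was 299.6 and 320.3 on frozen replicates 2 and 3, against 336.4 to 367.1 on the other arrays. Once normalized, EPAS1 on frozen replicates 2 and 3 lay above every fresh array, while frozen replicate 1 lay within the fresh range.

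After normalization the EPAS1 log2 signal was 7.72 ± 0.055 for fresh, 7.92 ± 0.13 for frozen and 8.55 ± 0.10 for replated cells (n = 3 each). EPAS1 was 1.77-fold higher in replated than in fresh cells (log2 difference 0.83 ± 0.085, 95% interval 0.64 to 1.02, adjusted p = 0.000849). Only 14 of the 18102 probes had a larger positive difference in that comparison. Against frozen cells EPAS1 rose 1.54-fold (0.63 ± 0.085, 95% interval 0.44 to 0.81, adjusted p = 0.00212). Frozen and fresh cells differed by 0.20 ± 0.085 (95% interval 0.01 to 0.39, adjusted p = 0.264), which did not pass, and this difference was 0.05 when arrays were centred on their medians over all probes. The call against fresh cells and that against frozen cells each held under all 19 other settings, with differences of 0.72 to 0.89 and 0.55 to 0.75. In a bulk sample, a difference in how many cells hold a transcript and one in how much each cell holds cannot be told apart.

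The promoters of EPAS1, CITED2 and BHLHE40 are shown because each of these genes has 1 probe and that probe passed the test. The core of the HIF binding element is ACGTG or GCGTG, and the E-box bound by BHLHE40 protein is CACGTG, whose letters contain ACGTG on both strands. These letters were searched on both strands of the 250 bases before the gene's start in the RefSeq table of GRCh38.p14, and capitals below mark each ACGTG or GCGTG on either strand. The EPAS1 sequence is chr2:46297157-46297406, plus strand, the CITED2 sequence chr6:139374649-139374898, minus strand, and the BHLHE40 sequence chr3:4979187-4979436, plus strand, each 5′ to 3′.
EPAS1: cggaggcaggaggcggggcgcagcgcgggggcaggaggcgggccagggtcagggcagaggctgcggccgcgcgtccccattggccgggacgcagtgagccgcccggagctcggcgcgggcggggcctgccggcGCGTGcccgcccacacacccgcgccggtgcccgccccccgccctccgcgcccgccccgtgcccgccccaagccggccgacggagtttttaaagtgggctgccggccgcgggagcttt
CITED2: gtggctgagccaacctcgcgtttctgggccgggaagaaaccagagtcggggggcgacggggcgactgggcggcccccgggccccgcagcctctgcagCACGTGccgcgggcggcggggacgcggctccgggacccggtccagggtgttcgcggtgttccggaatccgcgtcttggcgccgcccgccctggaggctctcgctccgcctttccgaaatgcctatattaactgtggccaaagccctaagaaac
BHLHE40: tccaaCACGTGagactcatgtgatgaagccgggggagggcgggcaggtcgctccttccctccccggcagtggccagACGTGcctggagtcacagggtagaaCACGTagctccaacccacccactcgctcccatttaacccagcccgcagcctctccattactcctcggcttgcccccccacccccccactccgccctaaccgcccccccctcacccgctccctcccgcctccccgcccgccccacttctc

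The EPAS1 window held a core at 1 place, GCGTG on the plus strand at bases 117 to 113 before the start. CITED2 held 1 place, a CACGTG at bases 153 to 148 before the start. BHLHE40 held cores at 3 places, a CACGTG at bases 245 to 240, an ACGTG at bases 174 to 170 and an ACGTG on the opposite strand at bases 149 to 145. Of the 35114 promoters in the table, 18.5% held ACGTG, 32.2% GCGTG, 43.2% either core and 6.35% CACGTG in the same window. These shares count every entry, which can include several starts of a gene, while a member gene was read only at its start in the RefSeq table. Of the 9 genes with an entry, all but VHL, 6 held either core and 3 held CACGTG. These matches describe letters in a window and were not tested for binding or for a part in any difference between states.

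HIF1A, at chromosome 14 positions 61695513 to 61748258, encodes HIF-1 alpha and was read by 3 probes, each detected on all 9 arrays with scores from 0.98682 to 1. ILMN_1763260, annotated to NM_001530, had deposited signals of 181.5, 189.9 and 150.8 on the fresh arrays, 166.0, 139.8 and 139.2 on the frozen arrays and 143.2, 171.0 and 172.4 on the replated arrays. The ranges of the 3 states overlapped. The signals of ILMN_1681283 and ILMN_2379788, both annotated to NM_181054, lay between 88.0 and 110.0 and between 110.4 and 158.2 over the 9 arrays, again with overlapping states. The 3 probes differed between frozen and fresh cells by -0.13 to 0.14, between replated and fresh cells by -0.10 to 0.12 and between replated and frozen cells by -0.03 to 0.03 on the log2 scale. None passed, with adjusted p from 0.612 to 0.972. The 95% intervals of the comparison of replated with fresh cells reached from -0.35 to 0.16 for ILMN_1763260 and from -0.28 to 0.52 for ILMN_2379788, so that differences of this size were not excluded. ILMN_2379788 varied more among replicates than 98.7% of all tested probes (within-state SD 0.28, against a median of 0.11).

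ARNT, at chromosome 1 positions 150809713 to 150876599, had 1 probe (ILMN_1762582), near the background. Its deposited signals were 72.9, 69.4 and 79.2 in fresh, 82.4, 62.0 and 72.3 in frozen and 69.9, 71.3 and 70.0 in replated cells. It was detected on 1 of 3 fresh, 2 of 3 frozen and 2 of 3 replated arrays, with scores from 0.86166 to 0.98287. The largest of its 3 log2 differences was that of frozen against fresh cells, at -0.06 ± 0.12 (95% interval -0.34 to 0.21, adjusted p = 0.837). Differences within these bounds could not be resolved with this probe.

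Among the prolyl hydroxylases, EGLN1 encodes PHD2, the main oxygen sensor for HIF-1 alpha in most cells, and lies at chromosome 1 positions 231363756 to 231422287. Its probe (ILMN_1749892) had deposited signals of 304.7, 283.3 and 301.1 in fresh, 334.3, 245.9 and 176.6 in frozen and 278.8, 286.1 and 275.4 in replated cells. Both the highest and the lowest of the 9 values were on frozen arrays, replicates 1 and 3. The EGLN1 log2 signal averaged 7.91 ± 0.058 in the fresh, 7.76 ± 0.46 in the frozen and 7.86 ± 0.090 in the replated state, and no comparison passed (adjusted p 0.716, 0.912 and 0.758). Frozen minus fresh was -0.15 ± 0.18 with all arrays and 0.11 without frozen replicate 3, when the adjusted p was 0.596. Replated minus frozen was 0.10 ± 0.18 with all arrays and -0.16 without that array, when the adjusted p was 0.286.

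EGLN2, which encodes PHD1, lies at chromosome 19 positions 40799191 to 40808434 and had 2 probes with a score of 1 on all arrays. The deposited signals of ILMN_2354391 were 2700.6, 2610.9 and 2774.9 in fresh, 2830.3, 2155.7 and 2397.8 in frozen and 2910.4, 2778.5 and 2906.0 in replated cells. ILMN_1768773 lay between 256.7 and 340.6 over the 9 arrays. Both probes had small spreads among replicates, with within-state SDs of 0.058 and 0.031 on the log2 scale, and for ILMN_1768773 only 0.613% of tested probes had a smaller one. Replated minus fresh was 0.12 ± 0.068 (adjusted p = 0.353) and 0.10 ± 0.061 (adjusted p = 0.429). Replated minus frozen was 0.12 ± 0.068 (adjusted p = 0.278) and 0.11 ± 0.061 (adjusted p = 0.279). Frozen minus fresh was 0.00 ± 0.068 and -0.01 ± 0.061 (adjusted p 0.982 and 0.955), with 95% intervals within -0.15 to 0.16.

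EGLN3, at chromosome 14 positions 33924227 to 33951074, encodes PHD3, whose transcript is a HIF target in many cell types. Its probe (ILMN_1667626) was not detected on any array. The deposited signals were 59.0, 54.8 and 54.4 in fresh, 60.7, 55.1 and 58.0 in frozen and 50.6, 53.0 and 60.3 in replated cells. Scores ran from 0.15547 to 0.7365 with a median of 0.48485, inside the range of the negative controls, so no state can be compared.

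VHL lies at chromosome 3 positions 10141778 to 10153667, and its protein is the part of the ligase that binds hydroxylated HIF alpha. Its 3 probes, all detected on 9 arrays, did not move together. ILMN_2376625, annotated to NM_198156, the transcript that lacks the second of the coding exons, had deposited signals of 372.7, 304.9 and 304.6 in fresh, 315.9, 252.3 and 240.3 in frozen and 351.4, 377.9 and 377.9 in replated cells. All replated arrays lay above all frozen arrays. The normalized signal was 8.08 ± 0.13, 7.93 ± 0.11 and 8.31 ± 0.049 in the same order. This VHL probe was 1.30-fold higher in replated than in frozen cells (0.38 ± 0.086, 95% interval 0.19 to 0.57, adjusted p = 0.0188). The call was lost without frozen replicate 3 (0.32, adjusted p = 0.0624), without replated replicate 2 (0.35, adjusted p = 0.0591) and without replated replicate 3 (0.40, adjusted p = 0.0503).

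The other VHL probes are annotated to NM_000551, the full-length transcript. ILMN_1801984 had deposited signals of 181.4, 175.1 and 175.3 in fresh, 177.5, 119.5 and 130.0 in frozen and 137.6, 136.8 and 166.3 in replated cells. All replated arrays lay below all fresh arrays, but replated minus fresh, -0.33 ± 0.12, did not pass (adjusted p = 0.141), nor did frozen minus fresh, -0.30 ± 0.12 (adjusted p = 0.231). ILMN_1738579, the brightest VHL probe, lay between 815.8 and 1151.5 and differed by -0.03 to 0.08 in the 3 comparisons (adjusted p 0.527 to 0.858). Within each array, the log2 signal of ILMN_2376625 minus that of ILMN_1801984 was 1.07 ± 0.16 for fresh, 1.22 ± 0.21 for frozen and 1.64 ± 0.20 for replated cells. Replated exceeded fresh arrays by 0.57 with no overlap (two-sided exact permutation test, p = 0.1, the smallest that 3 against 3 arrays allow). Replated exceeded frozen arrays by 0.42, but their ranges overlapped (two-sided exact permutation test, p = 0.2). Frozen exceeded fresh arrays by 0.15, with overlapping ranges (two-sided exact permutation test, p = 0.5). This pair of probes was chosen after their values were seen. The probe sequences were not used here, so which transcripts each probe binds was not tested.

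HIF1AN, at chromosome 10 positions 100535943 to 100559998, encodes factor inhibiting HIF, the asparaginyl hydroxylase. ILMN_1681812 had deposited signals of 206.2, 192.2 and 206.8 in fresh, 192.4, 133.1 and 164.6 in frozen and 208.1, 184.2 and 183.1 in replated cells. Frozen minus fresh was -0.24 ± 0.12 (95% interval -0.50 to 0.02, adjusted p = 0.319), the largest of its 3 differences, and none passed. A further probe, ILMN_1898355, annotated to the expressed sequence tag BG258765, lay between 51.6 and 60.7 with scores from 0.19895 to 0.74967 and was detected on no array.

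CITED2, at chromosome 6 positions 139371807 to 139374648, is induced by HIF and its protein competes with HIF alpha for the coactivators p300 and CBP. It was read by 1 probe (ILMN_1663092) with a score of 1 throughout. Deposited signals were 2420.6, 2396.4 and 2324.7 in fresh, 2081.3, 1655.1 and 1897.6 in frozen and 2300.9, 2755.8 and 3150.0 in replated cells. The frozen arrays lay below all fresh and all replated arrays, while replated replicate 1 lay just below the fresh arrays and the other replated arrays above them. After normalization the CITED2 means were 11.13 ± 0.051, 10.92 ± 0.052 and 11.36 ± 0.18 in the same order, and replated replicate 1 lay within the fresh range.

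CITED2 was 1.35-fold higher in replated than in frozen cells (0.43 ± 0.090, 95% interval 0.24 to 0.63, adjusted p = 0.0134). Without replated replicate 3 this difference was 0.36 with an adjusted p of 0.051. Neither step against fresh cells passed, at -0.20 ± 0.090 for frozen cells (adjusted p = 0.279) and 0.23 ± 0.090 for replated cells (adjusted p = 0.187), so that frozen and replated cells stood on opposite sides of fresh cells without either being called.

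BHLHE40, also known as DEC1 or Stra13, lies at chromosome 3 positions 4979437 to 4985323 and encodes a basic helix-loop-helix repressor that HIF induces and that also acts in the circadian clock. Its probe (ILMN_1768534) had deposited signals of 516.1, 493.8 and 397.1 in fresh, 513.9, 417.4 and 442.4 in frozen and 304.1, 355.4 and 359.6 in replated cells. Every replated array lay below every fresh and frozen array. The normalized signal was 8.66 ± 0.19 for fresh, 8.81 ± 0.012 for frozen and 8.18 ± 0.11 for replated cells. Against frozen cells BHLHE40 fell 1.55-fold in replated cells (-0.63 ± 0.097, 95% interval -0.84 to -0.42, adjusted p = 0.00378), and this call held under all 19 other settings (-0.68 to -0.51).

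Against fresh cells BHLHE40 fell 1.40-fold in replated cells (-0.49 ± 0.097, 95% interval -0.70 to -0.27, adjusted p = 0.0234). That call was lost with the authors' processed values (-0.52, adjusted p = 0.0534) and without fresh replicate 1 (-0.45, adjusted p = 0.0731), fresh replicate 2 (-0.42, adjusted p = 0.0817), replated replicate 1 (-0.43, adjusted p = 0.0815) or replated replicate 3 (-0.50, adjusted p = 0.0702). Fresh replicate 3 was the low array of its state, at 8.45 against 8.75 and 8.80. Frozen minus fresh was 0.14 ± 0.097 (adjusted p = 0.487). EPAS1 had its highest mean in replated cells and BHLHE40, a HIF target gene, its lowest. CITED2, also induced by HIF, had its highest mean in replated cells, where it did not pass against fresh cells. Replated cells had the highest mean for 6 of the 14 tested probes. A link between these genes was not tested.

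**Figure D2:**
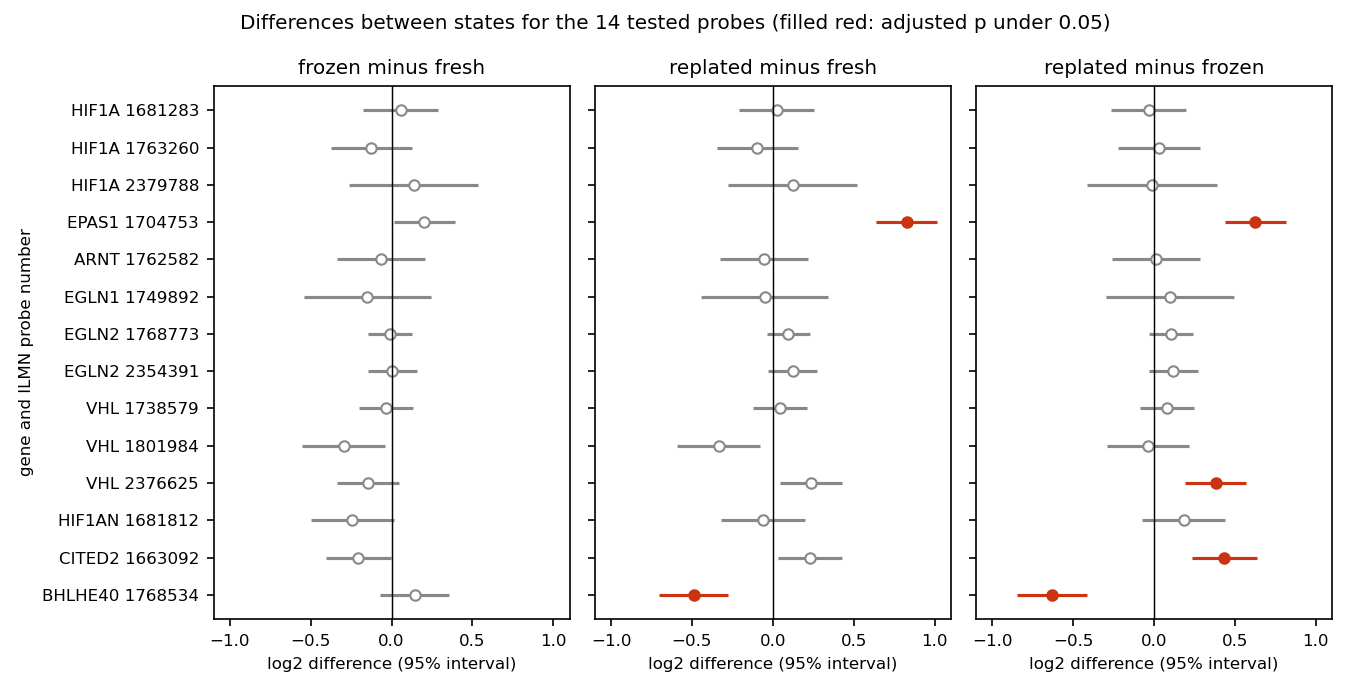
Log2 difference (x axis) of each of the 14 tested probes (y axis, gene and probe number) in the 3 comparisons, the second-named state subtracted from the first; points are limma's estimates, bars their 95% intervals, and filled red points have an adjusted p under 0.05. No point is red for frozen minus fresh, EPAS1 (0.83) and BHLHE40 (-0.49) are red for replated minus fresh, and EPAS1, VHL, CITED2 and BHLHE40 for replated minus frozen.

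Counted over the probes, 0 of the 14 were called between frozen and fresh cells, where limma called 1.02% of all probes. At an unadjusted p under 0.05 there were 3 of the 14, beside 17.2% of all probes, so that the members stood near the background. None was called there under any of the 19 other settings. Between replated and fresh cells 2 of 14 were called, against 4.13% of all probes: EPAS1 higher, against 2.22% of all probes called higher, and BHLHE40 lower, against 1.91% called lower. Between replated and frozen cells 4 of 14 were called, against 11.6% of all probes, and 3 of these were higher and 1 lower, against 6.25% and 5.32% of all probes. Higher probes made up 54.0% of all calls in that last comparison, but 84.6% when arrays were centred on their medians over all probes and 38.3% when centred on their medians over tested probes. The direction of each called member difference was the same under both centrings. These comparisons share arrays and some genes have several probes, so the counts are not independent. Because the genes were chosen with earlier results of these data known, the counts do not test the set against all probes. The median size of the 14 differences was 0.14 between frozen and fresh, 0.11 between replated and fresh and 0.10 between replated and frozen cells on the log2 scale, beside 0.10, 0.10 and 0.13 over all probes.

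The other settings tested how firm the 6 called differences were. EPAS1 in both comparisons and BHLHE40 against frozen cells passed in all 19. CITED2 passed in 18, the VHL probe in 16 and BHLHE40 against fresh cells in 14. The plot of these settings shows that the direction was kept in each.

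**Figure D3:**
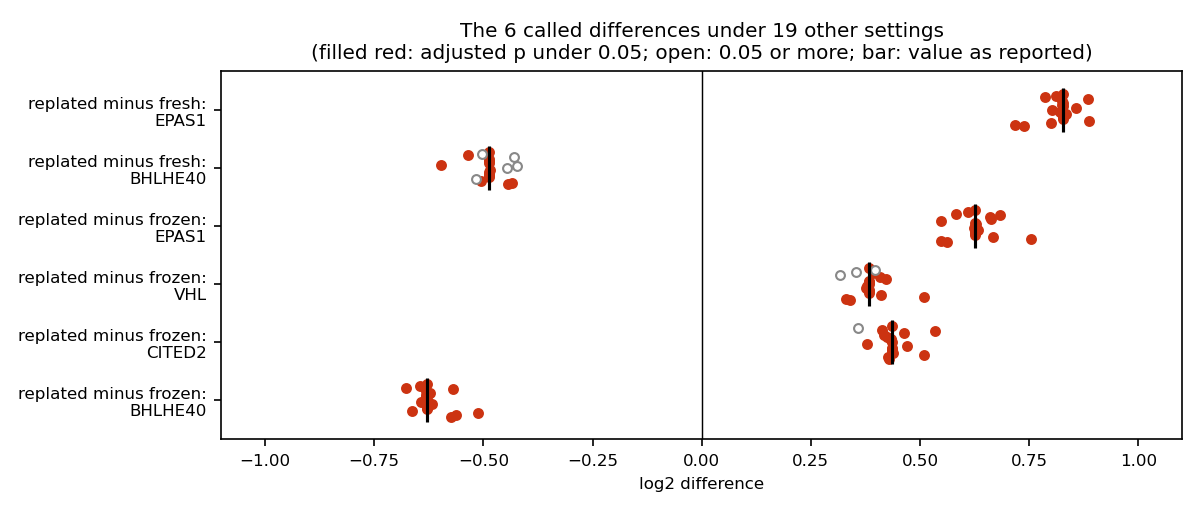
Log2 difference (x axis) of the 6 called differences (y axis) under 19 other settings of the processing; each point is 1 setting, filled red where the adjusted p was under 0.05 and open where it was not, and the black bar is the value reported. All points of a row lie on the same side of 0, and open points occur for BHLHE40 against fresh cells, for VHL and for CITED2.

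Genes that act around the members were described from lists. For a list, a gene stands for its probe with the highest mean signal, 10919 genes were tested, and 0.952%, 4.59% and 12.1% of them were called between frozen and fresh, replated and fresh, and replated and frozen cells. Of 10 genes for the VHL ligase and for HIF turnover, 9 were tested and 0 called in any comparison. In frozen against fresh cells 1 was lower under each of offset 50, no background correction, median centring over all probes and the stricter filter. In replated against fresh cells 1 was higher and 1 lower under the same settings apart from the centring. They include CUL2, RBX1, ELOB and ELOC, the other subunits of the ligase, and SIAH1 and SIAH2, ligases that act on the prolyl hydroxylases. ELOC had the largest difference from fresh cells of the ligase subunits, at -0.30 in frozen (adjusted p = 0.0948) and -0.27 in replated cells (adjusted p = 0.0757), while its other probe differed by -0.04 and -0.13. A further probe of SIAH1 was higher in replated than in frozen cells (0.25, adjusted p = 0.0314). Of 14 coactivators and relatives of the HIF subunits, 8 were tested and 0 called, among them EP300 (0.03 in replated against fresh cells) and CREBBP (0.08), which encode p300 and CBP. Of 10 other oxygen-dependent dioxygenases, 5 were tested and 0 called, with medians of -0.23 in frozen against fresh, -0.02 in replated against fresh and 0.17 in replated against frozen cells, beside 0.01, 0.00 and 0.00 for all genes. In the last of these 1 was higher under each of offset 50, no background correction, median centring over all probes and the stricter filter.

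The list of 50 HIF target genes had 40 tested members. Between replated and fresh cells 4 rose, 1 fell and 35 did not pass, with a median of -0.01, against 0.00 for all genes. ALDOC, a glycolytic aldolase gene, rose 1.47-fold (0.55 ± 0.064, adjusted p = 0.0016) and CXCR4, a chemokine receptor gene, rose 1.47-fold (0.55 ± 0.073, adjusted p = 0.00334), as did its other probe (0.49, adjusted p = 0.00726). DDIT4, which encodes an inhibitor of mTORC1, rose 1.43-fold (adjusted p = 0.0132) and PFKFB4, a regulator of glycolysis, 1.26-fold (adjusted p = 0.0378). PLOD2, a collagen lysyl hydroxylase gene, fell 1.28-fold (adjusted p = 0.0209). The 35 that did not pass lay between -0.24 for ANKRD37 (adjusted p = 0.449) and 0.32 for KDM3A (adjusted p = 0.316). Among them VEGFA lay at 0.03, SLC2A1 at 0.09, PGK1 at -0.03, LDHA at -0.15, PDK1 at -0.05, BNIP3 at 0.03 and BNIP3L at 0.16. The probes of VEGFA, PDK1 and ANKRD37 were dim, with fresh means of 5.87, 5.41 and 5.61 against 13.48 for LDHA, so their differences are understated. Without replated replicate 3 the counts were 2 higher and 0 lower, and 0 were lower without fresh replicate 1, fresh replicate 2 or replated replicate 2.

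Between frozen and fresh cells 1 of the 40 HIF target genes, DDIT4, fell (-0.60 ± 0.090, adjusted p = 0.0142) and 39 did not pass, with a median of 0.01. Without fresh replicate 2 or 3 that count was 0, and without fresh replicate 1 it was 2. Between replated and frozen cells 4 rose, 4 fell and 32 did not pass, with a median of 0.04, beside 0.00 for all genes. DDIT4 (1.12 ± 0.090, adjusted p = 6.49e-05), CXCR4 (0.49) and WSB1 (0.35, adjusted p = 0.0183), whose product targets VHL, rose, and PLOD2 (-0.47) and PLIN2, a lipid droplet protein gene (-0.33, adjusted p = 0.0111), fell. The other PLIN2 probe lay at -0.19 and did not pass (adjusted p = 0.145). HK2, AK4 and ALDOC were also called. The other HK2 probe was called the opposite way (0.41, adjusted p = 0.0388, against -0.26). For AK4, called at -0.27, the 3 other probes lay at 0.28, 0.09 and -0.25 and did not pass. GAPDH did not pass by its brightest probe (0.09), although another of its probes was called higher (0.29, adjusted p = 0.0308). With arrays centred on their medians over all probes, 8 rose and 1 fell, and over tested probes 4 rose and 4 fell. The counts were 2 higher and 2 lower without replated replicate 2 or replated replicate 3, 2 higher without frozen replicate 2, and 2 lower without fresh replicate 2, frozen replicate 3 or replated replicate 1.

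**Figure D4:**
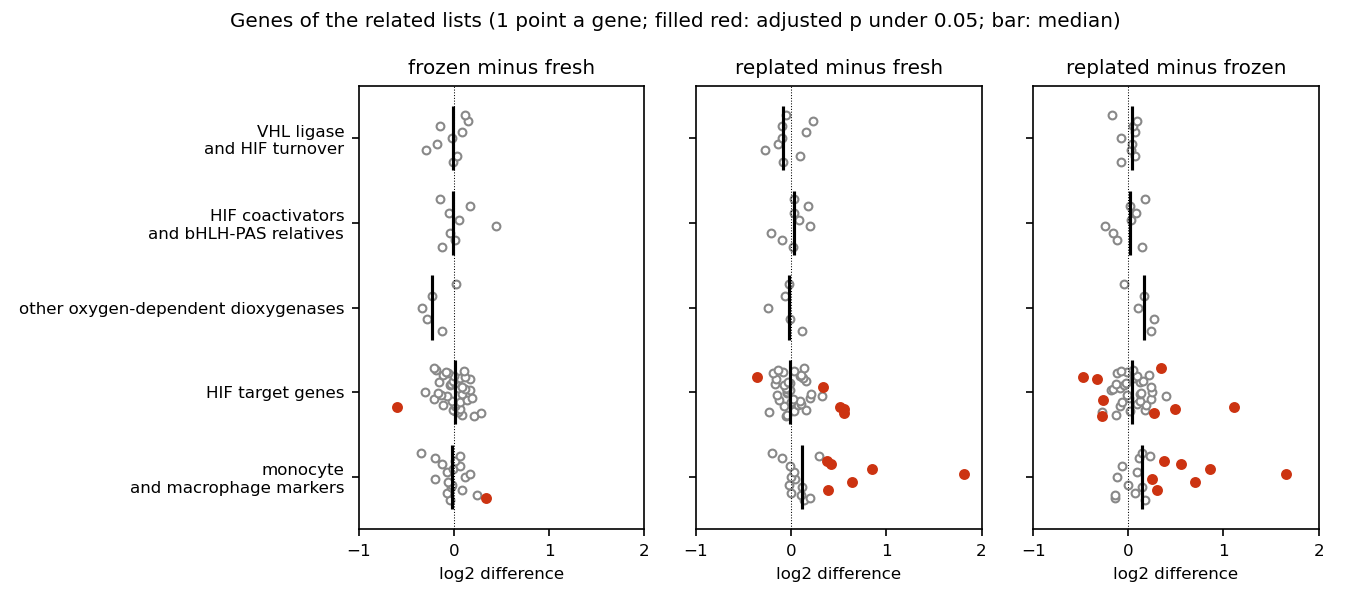
Log2 difference (x axis) of each tested gene of 5 lists (y axis) in the 3 comparisons, the second-named state subtracted from the first; each point is 1 gene, filled red where its adjusted p was under 0.05, and the black bar is the list's median. The HIF target genes centre on 0 in each comparison (medians 0.01, -0.01 and 0.04), and the red points of the monocyte and macrophage markers all lie above 0.

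Some markers of monocytes and macrophages rose in replated cells. Of 19 tested, 6 rose, 0 fell and 13 did not pass against fresh cells, with a median of 0.11, and 7 rose, 0 fell and 12 did not pass against frozen cells. Of all 10919 genes, 266 rose and 235 fell against fresh cells, and 721 rose and 601 fell against frozen cells. The summed background-corrected signal of the 19 markers lay between 21835 and 22013 on fresh, 21435 and 22149 on frozen and 25706 and 26944 on replated arrays. Bright genes weigh most in such a sum. Among them, LYZ had a mean log2 signal of 11.27 in fresh and 12.12 in replated cells. GPNMB rose 3.53-fold and LYZ 1.81-fold against fresh cells, the largest of the 6. On the log2 scale the 13 that did not pass lay between -0.20 for VCAN (adjusted p = 0.393) and 0.29 for TYROBP (adjusted p = 0.0555). Among them CSF1R lay at -0.02, SPI1 at -0.09, AIF1 at 0.13, and CD163, detected on only 7 arrays, at 0.00. The other AIF1 probe was called higher (0.35, adjusted p = 0.014). Without fresh replicate 1, fresh replicate 2 or replated replicate 3 the count against fresh cells was 3, without replated replicate 2 it was 4, and with arrays centred on their medians over all probes it was 3. Between frozen and fresh cells 1 rose, APOE, and 0 when any single array was left out. The 5 tested markers of other cell types had sums of 1463 to 1485, 1336 to 1442 and 1592 to 1766 in the same order, and NKG7, a granule protein gene of cytotoxic cells, rose 1.41-fold in replated against fresh cells. Against frozen cells 2 of the 5 rose, NKG7 (0.39, adjusted p = 0.0053) and PECAM1, an adhesion molecule gene (0.26, adjusted p = 0.0496). The part of either marker list in the EPAS1 and BHLHE40 differences was not tested.

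Other genes resembled the 4 probes that passed the F test in their profile over the 9 arrays. Likeness was the root mean square difference of log2 signal after each probe was centred on its own mean, among the 1328 other genes that passed the same test. The genes were picked for likeness on these same arrays, so that their differences lie near those of the member follows from the choice. The nearest to EPAS1 were KCNF1 (0.105), S100A10 (0.122) and ITGB7 (0.124), which lay 0.66, 0.77 and 0.73 higher in replated than in fresh cells. For BHLHE40 they were DUSP2 (0.058), TNFSF14 (0.077) and CDH15 (0.078), at -0.47, -0.49 and -0.52 in that comparison. For CITED2 they were GPSM3 (0.059), LZTFL1 (0.064) and RPL37A (0.069), and for the VHL probe CFD (0.033), ZRANB2 (0.048) and DLGAP5 (0.051).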

How the data were processed

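Per the file headers, the deposited table gives for each probe and array a signal before normalization, in linear intensity units, and a detection value. The deposited detection values rise with signal and were therefore read as a score, 1 minus a detection p. Their columns share a header, and each was assigned to the array whose signal it never falls with (0 falls, at least 984 for any other array). How the authors made their second table, of processed intensity values, was not stated in what was used here; it ranked probes as the signal of the same array did (Spearman correlation of 1) and served as an alternative. The labels name a miRNeasy kit for RNA extraction and a MessageAmp kit for labelling.

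Signals were processed with neqc of limma 3.58.1 in R 4.3.3 (normexp with offset 16, quantile normalization, log2), and probes detected on at least 3 of 9 arrays were kept. One linear model across the 9 arrays, with moderated variances (lmFit, eBayes; 6 residual and 4.65 prior degrees of freedom), gave the contrasts and the F test, adjusted over 18102 probes by Benjamini-Hochberg and called under 0.05. It was also run on simulated data, where a pass mark was set only for changes larger than the called member differences. The p-values measure the spread between these arrays, whose number limits the precision. Of the probes, 27578 had a single symbol, 13 several and 21212 none; symbols were updated through Entrez ID (27541), accession (12) or kept (25). The genes and lists were chosen with earlier results of these data known. All member probes are named, with up to 5 called genes per list and comparison, further list genes as examples chosen after their values were seen, and the 3 genes most alike each called member. Each array was left out in turn, and background, scaling, filters, a replicate block, array weights and the states fitted were varied; centring on tested probes was added after seeing the data.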

Additional observations from a re-analysis of the deposited data

How the results depend on the processing

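Of 1042 repeated tests of the 14 probes, 977 kept their direction and their side of the threshold, 25 lost a call, 1 gained one and 39 took the other direction, none of them called in either setting. Those that lost a call concerned BHLHE40, CITED2 and 1 VHL probe. The gain was another VHL probe, ILMN_1801984, in the F test without frozen replicate 1 (adjusted p = 0.0415, against 0.133 with all arrays).

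The number of probes called between frozen and fresh cells was 184, and 542 with offset 50, 565 with no background correction, 827 with median centring over all probes, 287 with centring over tested probes (chosen after seeing the data), 103 with the authors' values, 366 with the stricter filter, 104 with a replicate block, 54 with only the 2 states compared and 52 to 139 without 1 array. The median of all tested probes was -0.10 there with the first centring and 0.05 with the second. The share of these calls that were higher was 47.8%, and 8.46% and 69.7% with these centrings, 34.5% with offset 50 and 33.5% with no background correction. Between replated and fresh cells the number was 747, and 1333 with offset 50, 1305 with no background correction, 468 with median centring over all probes, 427 with the authors' values, 1199 with the stricter filter and 444 with a replicate block, and 245 to 696 without 1 array. Between replated and frozen cells it was 2095, and 1011 to 2028 without 1 array. The 2095 were 1132 higher and 963 lower, and with offset 50 these counts were 1573 and 1381. They were 1577 and 1341 with no background correction and 1303 and 1219 with the stricter filter. With median centring over all probes they were 2028 and 369, and with the authors' values 782 and 716. A replicate block gave 950 and 790, and only the 2 states compared gave 927 and 764. The F test called 1743 probes, and 2914 with offset 50, 2877 with no background correction, 1062 with the authors' values and 712 to 1428 without 1 array. The cause was not tested, except that fewer arrays or probes were fitted where these were left out.

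Member probes called numbered 2 between replated and fresh cells, 1 with the authors' values and 1 to 2 without 1 array; 4 between replated and frozen cells, and 2 to 4 without 1 array; and 4 in the F test, 2 with the authors' values and 2 to 4 without 1 array. Deviations from state means of same-numbered arrays correlated at -0.0476 to 0.0473 (9 pairs), and those of differently numbered arrays at -0.0640 to 0.0338 (18 pairs). No effect shared by arrays of the same number was seen. Whether such arrays came from a common culture cannot be told from these correlations. The replicate block changed no call of a member probe in the 3 comparisons of states or the F test; it took the HIF target genes lower in replated than in frozen cells from 4 to 2.

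Log2 differences that crossed 0 were not called in any setting run. With median centring over all probes, frozen minus fresh became -0.0488 for HIF1A ILMN_1681283, -0.00518 for HIF1A ILMN_2379788 and -0.10 for EGLN2 ILMN_2354391, and replated minus frozen became 0.0596 and 0.11 for the same HIF1A probes and 0.0823 for VHL ILMN_1801984. With centring over tested probes ARNT became 0.0753 in frozen minus fresh and -0.124 in replated minus frozen. Without 1 array, frozen minus fresh ranged from -0.0483 to 0.15 and -0.00161 to 0.25 for these HIF1A probes, -0.15 to 0.0573 for ARNT, -0.32 to 0.11 for EGLN1, -0.0358 to 0.0105 and -0.0315 to 0.0383 for EGLN2 and -0.0838 to 0.0202 for VHL ILMN_1738579. Replated minus fresh ranged from -0.0816 to 0.11, -0.21 to 0.0148 and -0.0237 to 0.33 for HIF1A, -0.12 to 0.0635 for ARNT, -0.0805 to 0.00115 for EGLN1 and -0.17 to 0.0192 for HIF1AN. Replated minus frozen ranged from -0.0847 to 0.0327, -0.0308 to 0.11 and -0.16 to 0.19 for HIF1A, -0.11 to 0.10 for ARNT, -0.16 to 0.27 for EGLN1 and -0.12 to 0.10 for VHL ILMN_1801984. The ARNT and EGLN3 probes lie near or within the background, which limits what can be said of them; ARNT and HIF1A ILMN_1681283 had no value under the stricter filter.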
